A study of Homo sapiens with 6 samples.

Results

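A set of 87 genes of H2087-LCC cells had mRNA levels that rose after 3 days of TGFβ and fell back by 7 days, and these are called transient genes here. H2087-LCC is a latency competent cancer (LCC) population, a dormant metastatic derivative of human lung adenocarcinoma (LUAD) cells that was obtained by selection in vivo. RNA-seq was performed on 3 groups of 2 libraries. The cells received either the TGFβ type I receptor inhibitor SB505124 (SB) for 3 days, TGFβ for 3 days, or TGFβ for 7 days. The members were chosen by these measured values, and a gene was a member when its mean normalized count over the 6 libraries was at least 50, its group mean of log2(normalized count + 1) was more than 0.5 higher at 3 days than in SB, and that at 7 days was more than 0.5 lower than at 3 days. Of the 21293 genes in the table, 12307 had a mean of at least 50, and 87 of these (0.707%) met the rule. The rise to 3 days and the fall from 3 to 7 days chose the members, so both are given as a description. No test of them is taken as support. The difference between 7 days and SB, called the net difference here, is no term of the rule and was tested. It is still the sum of the rise and the fall, measured on libraries the rule used. Its test is thus not independent of how the members were chosen.

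The study describes the pair of libraries of a group as technical replicates, so SDs, standard errors and p-values measure only the spread between these libraries and may not cover that between cultures. The SB group was harvested at 3 days only, so the effects of TGFβ and of time in culture cannot be told apart in the net difference. The same holds for the fall from 3 to 7 days. In a bulk sample, a lower level in every cell and a smaller number of expressing cells cannot be told apart either. The cells come from 1 selected population, and no parental line was in these libraries.

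TGFβ binds a pair of receptor kinases at the cell surface, which pass the signal to SMAD transcription factors, and in lung cancer cells it is known to drive the epithelial-mesenchymal transition (EMT). Besides SMADs, cells reshaping their cytoskeleton and adhesions use YAP and TAZ, coactivators that bind DNA through TEAD factors, and serum response factor (SRF), which binds the CArG box. Immediate early genes such as EGR1 and FOSB are textbook examples of genes whose mRNA rises and falls quickly after a stimulus.

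The libraries held an estimated 32000000 to 40000000 assigned reads, judged from the spacing of the low values. The 6 epithelial markers summed to between 88277 and 112407 normalized counts, most of it from KRT8 and KRT18. CDH1 went from 371 and 635 in SB to 10 and 9 at 7 days, and EPCAM from 10180 and 9106 to 2988 and 3277. KRT18 was also lower at 7 days, at 34714 and 31757 against 47266 and 50793 in SB. KRT7 went the other way, from 5860 and 6183 in SB to 13979 and 11230 at 7 days. For KRT8 and KRT19 the SB and 7-day libraries overlapped. Of the other cell types, the 4 leukocyte markers summed to 7 to 22 and the 4 endothelial markers to 93 to 294. The 4 fibroblast markers summed to 210 and 258 in SB and to 465 and 595 at 7 days, most of it from COL1A1, with LUM at 0 in each library. The part of these markers in the results was not tested. Lung lineage markers (6 genes) summed to 7375 and 16378 in the SB libraries. Most of this gap came from the surfactant gene SFTPB at 1104 and 8273, so the SB libraries stood apart from each other. In the TGFβ libraries the sum was 2603 to 4699. Within this list SOX9 went the other way at 7 days, with 2591 and 2769 against 1835 and 2305 in SB.

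Loss of the early rise was uncommon. Of the 12307 genes averaging at least 50, 1298 (10.5%) rose by more than 0.5 at 3 days and 1092 (8.87%) fell by more than 0.5 between 3 and 7 days. The transient genes made up 6.7% of the genes with the rise, and 27.7% of the genes with the rise were lower at 7 days than at 3 days by any amount. Across the members, the rise on the log2 scale ranged from 0.50 to 2.79 with a median of 0.97, and the fall from -0.52 to -3.48 with a median of -0.75. Both 3-day libraries lay above the other 4 libraries for 86 of the 87 members, against 7.35% of the genes averaging at least 50, a pattern the rule itself favors. MYO16 was the exception. Both steps were past the limma threshold for 71 members, against 1.27% of all genes tested, which follows from the rule and is no support for it.

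**Figure D1:**
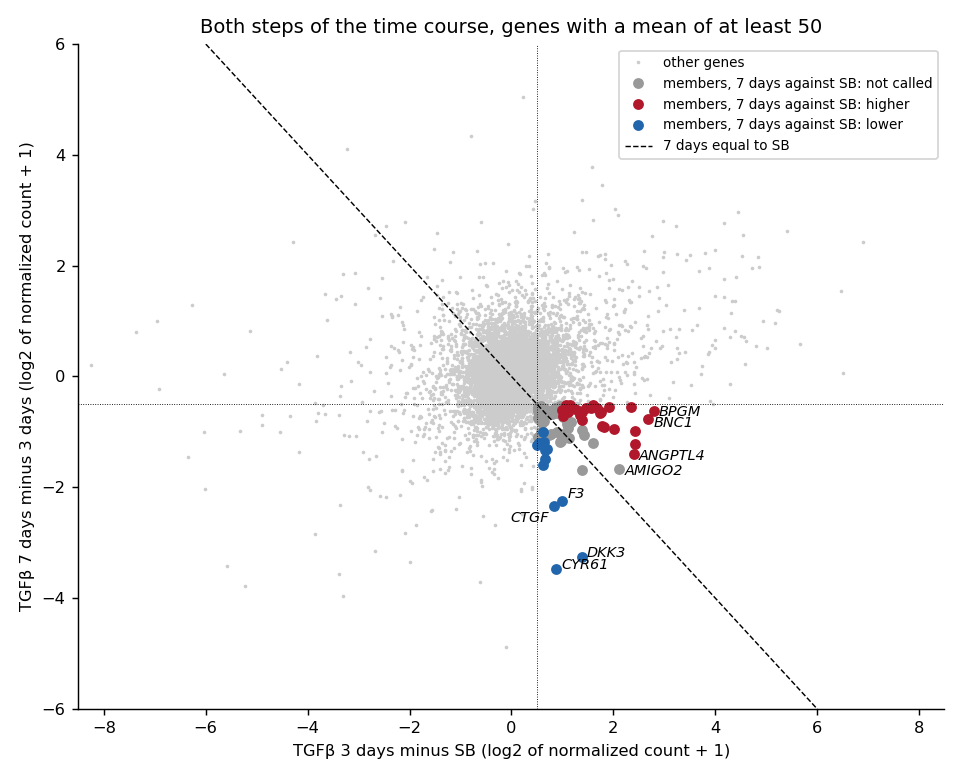
Rise from SB to 3 days of TGFβ (x axis) against the change from 3 to 7 days (y axis), both as differences of log2(normalized count + 1), for the genes averaging at least 50. Each point is a gene, dotted lines mark the limits of 0.5, and on the dashed line 7 days equals SB. The 87 members lie in the lower right field, with CYR61 and DKK3 far below the dashed line and BPGM and BNC1 far above it.

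How far the members fell back differed widely. The share of the rise that was lost by 7 days, on the log2 scale, ranged from 22.2% to 396%, with a median of 75.0%. Of the members, 33 lost more than the whole rise and 35 lost between 50% and 100% of it. The other 19 lost less than 50%. The median and these classes depend on the rule, which set a least fall, and are given as a description. Under that limit, a member with a rise of 1 or less had to lose more than 50%. Only 40 of the 87 members had a rise over 1 and could lose less. At 7 days, 28 of the 87 members were higher than in SB and 12 were lower (moderated test of limma, Benjamini-Hochberg adjusted p under 0.05 over the 14395 genes tested). Over all genes tested, 27.7% were higher and 26.9% were lower at 7 days than in SB, 54.5% in all. The other 47 members did not pass the test, 26 of them with a net difference above 0 and 21 below 0. Among the 1298 genes with the rise, 91.4% were higher at 7 days than in SB, and the 12 that were lower (0.924%) are the same 12 members, since a gene that rises and then ends lower than SB must have fallen. The median net difference was 0.25 for the members and 1.15 for the genes with the rise.

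These counts moved with the SB library used. Without SB replicate 1, 39 members were higher and 7 were lower at 7 days than in SB. Without SB replicate 2, 25 were higher and 20 were lower. With each library left out in turn, 21 of the 28 higher calls and 5 of the 12 lower calls were kept in all 6 fits, the 5 being CYR61, DKK3, CTGF, F3 and PLK2.

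**Figure D2:**
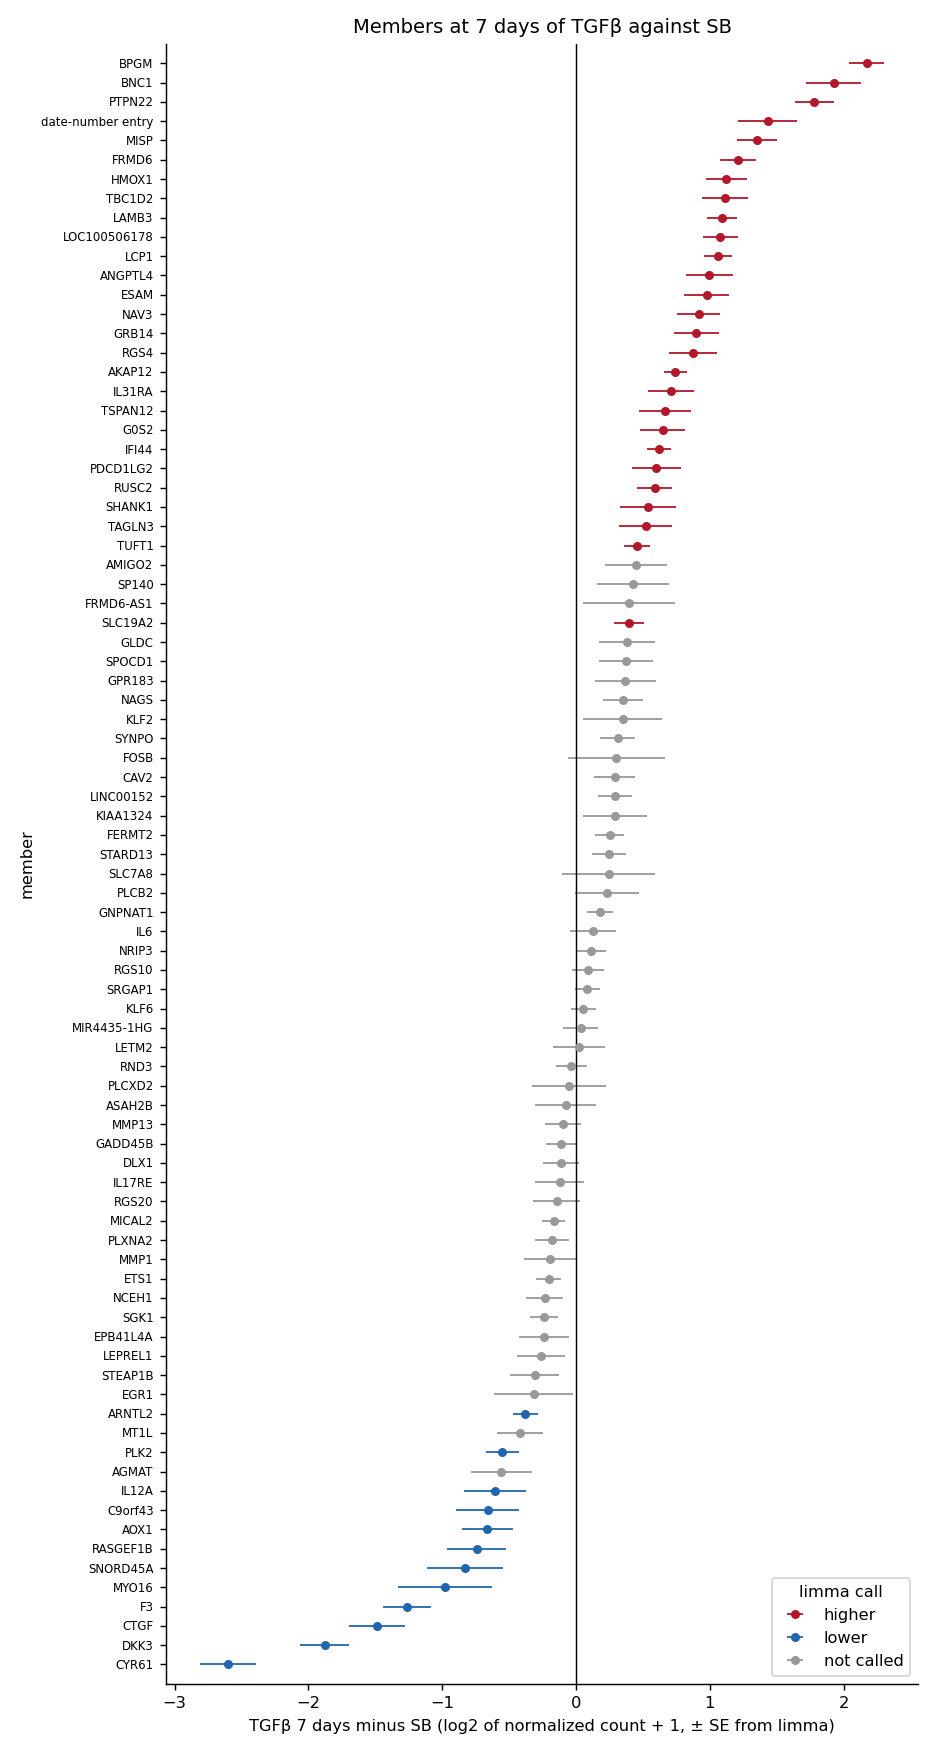
Net difference of 84 of the 87 members, as 7 days of TGFβ minus SB in log2(normalized count + 1), with the standard error from limma. Genes are sorted by this difference, red and blue mark those higher and lower than SB by the adjusted p, and gray marks those not past it. CYR61 is lowest at -2.60 and BPGM highest at 2.17.

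Promoter sequences were compared because the members shared a time course. A RefSeq promoter window (GRCh38.p14, 250 bases before to 50 after the gene's start) was given for 64 of the 87 members, and CYR61, DKK3, MMP1 and MMP13 are among those not scanned. The TEAD motif GGAATG occurred on either strand in 6 of 64 members (9.38%), against 13.0% of the genes with the rise and 14.0% of all 27305 promoters. CTGF held 3 matches, at 169, 104 and 95 bases before its start. The AP-1 motif TGACTCA was in 6 members (9.38%) against 5.40% of the genes with the rise, among them F3 and AMIGO2. The CArG box of SRF was in 4 members (6.25%), AKAP12, EGR1, GPR183 and RND3, against 1.38% of the genes with the rise and 1.29% of all promoters. TATAAA was in 13 members (20.3%), against 7.96% of the genes with the rise and 5.37% of the genes averaging at least 50, and in 12% of all promoters. Within 35 to 20 bases before the start, a window set after the matches were seen, it was in 4 members (6.25%) against 2.85% of the genes with the rise. The palindromic SMAD motif GTCTAGAC and the CRE motif TGACGTCA had no match in the members. A match is a description of letters and not a binding site.

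The 250 bases upstream of the start are shown for 5 of the members named above, 5′ to 3′ on the gene's strand, with the named motif in capitals. For CTGF (chr6:131951373-131951622, - strand) the capitals mark TEAD motifs, and for F3 (chr1:94541760-94542009, - strand) the AP-1 motif on the opposite strand. For EGR1 (chr5:138465229-138465478, + strand), AKAP12 (chr6:151239717-151239966, + strand) and RND3 (chr2:150487696-150487945, - strand) they mark CArG boxes.
CTGF: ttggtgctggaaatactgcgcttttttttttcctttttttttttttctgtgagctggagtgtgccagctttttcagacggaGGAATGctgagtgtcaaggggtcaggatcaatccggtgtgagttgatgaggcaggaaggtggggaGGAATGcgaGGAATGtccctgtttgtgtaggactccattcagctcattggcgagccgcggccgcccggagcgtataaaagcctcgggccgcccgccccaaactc
F3: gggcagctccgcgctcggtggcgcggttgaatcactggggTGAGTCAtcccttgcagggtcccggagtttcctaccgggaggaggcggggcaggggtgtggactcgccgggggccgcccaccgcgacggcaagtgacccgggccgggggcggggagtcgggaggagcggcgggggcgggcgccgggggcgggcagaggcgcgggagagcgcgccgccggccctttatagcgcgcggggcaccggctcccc
EGR1: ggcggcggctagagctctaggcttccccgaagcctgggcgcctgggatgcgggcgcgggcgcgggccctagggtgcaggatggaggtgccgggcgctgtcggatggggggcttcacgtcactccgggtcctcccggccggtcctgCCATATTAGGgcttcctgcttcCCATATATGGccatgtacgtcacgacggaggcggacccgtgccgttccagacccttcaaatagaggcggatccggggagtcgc
AKAP12: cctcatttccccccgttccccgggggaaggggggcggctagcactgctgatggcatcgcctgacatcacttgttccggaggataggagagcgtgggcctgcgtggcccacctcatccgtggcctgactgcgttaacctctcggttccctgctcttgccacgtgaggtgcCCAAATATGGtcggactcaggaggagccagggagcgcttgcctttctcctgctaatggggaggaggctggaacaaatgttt
RND3: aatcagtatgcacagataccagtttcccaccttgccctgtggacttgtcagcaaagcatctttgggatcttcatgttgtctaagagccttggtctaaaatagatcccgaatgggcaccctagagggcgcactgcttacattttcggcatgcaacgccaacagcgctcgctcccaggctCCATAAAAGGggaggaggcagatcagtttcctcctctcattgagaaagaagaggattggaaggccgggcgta
The 3 TEAD matches of CTGF lie beside a net difference of -1.49. Of the members with CArG matches, AKAP12 was higher than SB at 7 days (0.74), and EGR1 (-0.32) and RND3 (-0.03) did not pass the test.

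The deepest falls were those of CYR61, DKK3 and CTGF, which encode secreted signals. Among the other secreted signals, IL6 (-0.67) and TUFT1 (-0.65) fell less than the member median of -0.75. Of the 7 secreted signals among the members, 4 were lower at 7 days than in SB, 2 were higher and 1 did not pass the test. Of all genes tested, 26.9% were lower and 27.7% were higher. These shares are also the background for the role groups that follow. CYR61 (chr1:86046444-86050272 in GRCh37, + strand) and CTGF (chr6:132269316-132272512, - strand), also known as CCN1 and CCN2, encode matricellular proteins that bind integrins. CYR61 stood at 11080 and 5910 normalized counts in SB, 15074 and 14686 at 3 days and 1408 and 1262 at 7 days. The groups did not overlap, and both 7-day libraries were far below SB. Its level at 7 days was 11.2-fold below that at 3 days, and the net difference was -2.60 on the log2 scale (SE 0.21, limma adjusted p = 9.70e-07). With its 3 TEAD motifs shown above, CTGF had 3032 and 1724 normalized counts in SB, 4608 and 3657 at 3 days and 881 and 751 at 7 days. Again the 3 groups were separate, with a net difference of -1.49 (SE 0.21, limma adjusted p = 9.29e-05). For both genes the gap between the SB libraries was wide, and the rise was 0.43 for CYR61 and 0.44 for CTGF against SB replicate 1 alone, below the limit of 0.5, and 1.33 and 1.251 against SB replicate 2 alone.

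DKK3 (chr11:11977754-12031316, - strand), a secreted member of the dickkopf family, fell by 3.26 on the log2 scale after the rise. Its normalized counts were 142 and 139 in SB, 402 and 334 at 3 days and 39 and 36 at 7 days. Here the SB libraries were close together, and the 7-day libraries were the lowest (net difference -1.88, SE 0.18, limma adjusted p = 5.58e-06). DKK1, which encodes a WNT inhibitor of the same family and is not a member, kept rising from 1597 and 1515 in SB to 2249 and 2165 at 3 days and 4115 and 4327 at 7 days. IL12A, a subunit of interleukin 12, was also lower at 7 days (-0.60, limma adjusted p = 0.0451), but this call was lost with any 1 library left out. ANGPTL4, a secreted inhibitor of lipoprotein lipase, kept part of its rise. It stood at 420 and 306 in SB, 1671 and 2154 at 3 days and 811 and 633 at 7 days, with no overlap between groups and a net difference of 0.997 (SE 0.18, limma adjusted p = 0.000525). IL6, an inflammatory cytokine, returned to 143 and 158 at 7 days from 243 and 238 at 3 days, against 154 and 123 in SB, so its SB and 7-day libraries overlapped. TUFT1 was higher at 7 days than in SB (0.46, limma adjusted p = 0.00231).

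**Figure D3:**
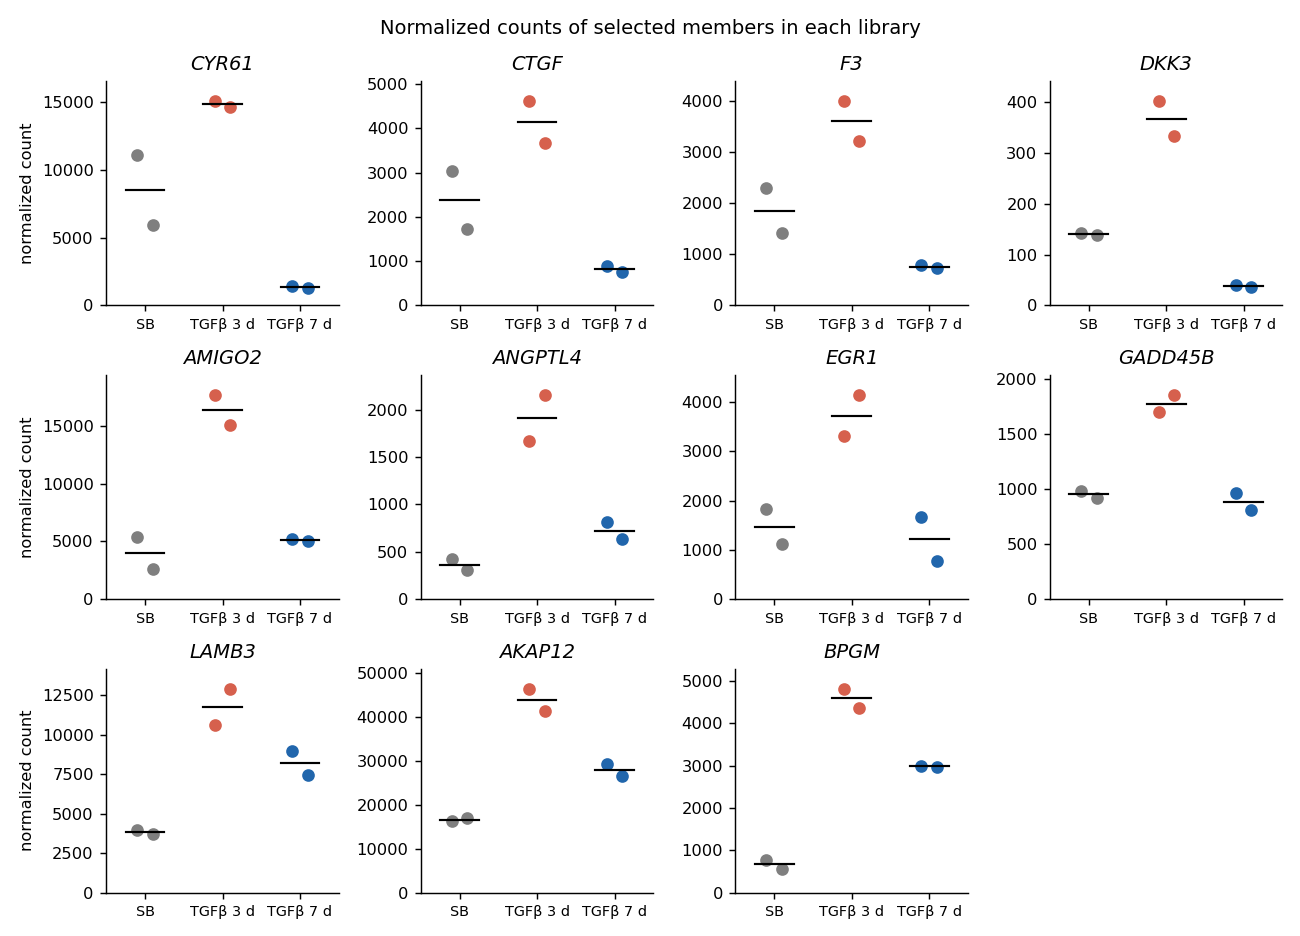
Normalized counts of 11 members in each of the 6 libraries (points, y axis from 0) with the group mean (line), for SB, TGFβ at 3 days and TGFβ at 7 days. In each panel both 3-day libraries are the highest, and the 7-day libraries lie below SB for CYR61, CTGF, F3 and DKK3 and above SB for ANGPTL4, LAMB3, AKAP12 and BPGM.

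Among 13 cell surface proteins, 4 were higher at 7 days than in SB, 1 was lower and 8 did not pass the test. F3 (chr1:94994729-95007315, - strand) encodes tissue factor, the cell surface trigger of coagulation, and was the lower one. Its normalized counts were 2289 and 1420 in SB, 3992 and 3210 at 3 days and 782 and 720 at 7 days. The 3-day libraries were the highest and the 7-day libraries the lowest (net difference -1.26, SE 0.18, limma adjusted p = 0.000121). AMIGO2, a leucine-rich repeat adhesion protein, had a larger step, from 5373 and 2627 in SB to 17645 and 15074 at 3 days and back to 5192 and 5044. Its 7-day values lay between the SB values (net difference 0.45, SE 0.23, limma adjusted p = 0.125). The sign of this net difference turned without SB replicate 2 (-0.0703), and without SB replicate 1 it passed the test (0.96, limma adjusted p = 0.000105). PLXNA2, a semaphorin receptor, rose from 2878 and 2338 to 3559 and 4304 and ended at 2468 and 2121. Of the higher ones, IL31RA, a cytokine receptor subunit, and ESAM, an adhesion molecule, kept their calls with each library left out, and TSPAN12 and PDCD1LG2, a ligand of the PD-1 receptor, lost them without SB replicate 2 or the second 7-day library. Other members at the surface that did not pass the test were CAV2, GPR183, IL17RE, KIAA1324 and STEAP1B, with net differences from -0.31 to 0.37. STEAP1B overlaps IL6 on the opposite strand, and the library kit does not mark strand, so reads of this pair cannot be told apart where they overlap.

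The 5 members of the extracellular matrix and its enzymes included 2 that were higher at 7 days than in SB and 3 that did not pass the test. LAMB3 (chr1:209788215-209825770, - strand) encodes the β chain of the laminin that anchors epithelial cells to their basement membrane, and stood at 3972 and 3728 normalized counts in SB, 10631 and 12887 at 3 days, and 8990 and 7446 at 7 days. The 7-day libraries lay between those of SB and 3 days (net difference 1.09, SE 0.11, limma adjusted p = 8.98e-06). LAMA3, the gene of the α chain, was not a member. It rose from 464 and 609 in SB to 1036 and 1032 and then stood at 1132 and 1141, a difference between 3 and 7 days that did not pass the test (limma adjusted p = 0.452).

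The collagenases MMP1 and MMP13, neighbors on chromosome 11, rose and returned together. MMP1 had 421 and 251 normalized counts in SB, 647 and 631 at 3 days and 279 and 290 at 7 days. MMP13 had 422 and 390, then 814 and 831, then 338 and 425. The SB and 7-day libraries overlapped for both, and neither net difference passed the test (limma adjusted p = 0.435 and 0.569). Without SB replicate 2, MMP1 was lower at 7 days (-0.56, limma adjusted p = 0.00675), and without SB replicate 1 its net difference was 0.18. LEPREL1, a prolyl hydroxylase of collagen, followed the same course at 937 and 580, 1283 and 1234, and 613 and 616 (limma adjusted p = 0.230). Of the 16 listed metalloproteinases and inhibitors that were tested, 9 were higher at 7 days than at 3 days and only MMP1 and MMP13 were lower. The shares over all genes tested were 17.0% higher and 16.2% lower, and the rule chose MMP1 and MMP13 by this fall. MMP14, a membrane-bound member of the metalloproteinase list, went from 24795 and 21290 to 86804 and 98648 and then to 135615 and 122833.

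Of 10 transcription factors and nuclear proteins, 8 did not pass the test at 7 days against SB. EGR1, a zinc finger factor of the immediate early class, had 1828 and 1110 normalized counts in SB, 3312 and 4140 at 3 days and 1676 and 779 at 7 days. The 7-day libraries differed more from each other than the group means of SB and 7 days did (net difference -0.32, SE 0.30, limma adjusted p = 0.383), and without the first 7-day library the gene was lower than SB (-0.87, limma adjusted p = 0.0101). FOSB, an AP-1 subunit, had 37 and 39, 83 and 82, and 76 and 29, and without the second 7-day library it was higher than SB (0.98, limma adjusted p = 0.0215). FOS, which shares its class and is not a member, had 991 and 140 at 7 days, so EGR1, FOSB and FOS were all higher in the first 7-day library. KLF6 and KLF2, zinc finger factors of the same list, had net differences of 0.05 and 0.35, and without SB replicate 1 KLF2 was higher than SB (0.83, limma adjusted p = 0.0190). ETS1, the founding ETS factor, rose from 12645 and 11825 to 19490 and 16233 and ended at 10915 and 10306 (net difference -0.21, SE 0.10, limma adjusted p = 0.0891). BNC1, basonuclin, kept most of its rise and was higher at 7 days (292 and 167 in SB, 1510 and 1353 at 3 days, 903 and 786 at 7 days, net difference 1.93, limma adjusted p = 1.19e-05). ARNTL2, a circadian clock factor, was lower at 7 days than in SB by 0.38 (limma adjusted p = 0.00434), a call lost without the first 7-day library. DLX1, SP140 and SPOCD1 did not pass the test, with net differences from -0.11 to 0.42.

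Regulators of the cytoskeleton and adhesion made up 15 members, of which 6 were higher at 7 days, 1 was lower and 8 did not pass the test. The share of such genes among all genes was not counted. FRMD6, a FERM domain protein that acts upstream of the Hippo kinases, rose from 1395 and 1006 to 6946 and 5908 and fell to 2796 and 2691. LCP1, the actin-bundling protein L-plastin, rose from 830 and 739 to 3309 and 3001 and fell to 1643 and 1627. Both lost about as much as they kept, and both were still higher than in SB at 7 days (1.21 with limma adjusted p = 1.92e-05 for FRMD6, 1.06 with limma adjusted p = 4.68e-06 for LCP1). MISP, an actin-associated protein of the mitotic spindle, had 179 and 216, 697 and 788, and 549 and 461 (net difference 1.35, limma adjusted p = 1.49e-05). NAV3, SHANK1 and TAGLN3 were the other higher ones. SHANK1 lost the call with any 1 library left out, and TAGLN3 lost it with most of them. RND3, an atypical small GTPase that opposes contractility, rose from 1558 and 1303 to 2186 and 1914 and returned to 1349 and 1435. FERMT2, the integrin activator kindlin, rose from 3602 and 2894 to 6008 and 5518 and returned to 3695 and 4006 (net difference 0.25, limma adjusted p = 0.0682), and without SB replicate 1 it was higher than SB (0.41, limma adjusted p = 0.00784). MYO16, an unconventional myosin at low counts of 75 and 35, 86 and 73, and 31 and 21, was the lower one, a call lost without SB replicate 1 or the second 7-day library. EPB41L4A, MICAL2, SRGAP1, STARD13 and SYNPO did not pass the test, with net differences from -0.24 to 0.31.

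Of 14 kinases, phosphatases and signaling adaptors, 6 were higher at 7 days, 2 were lower and 6 did not pass the test. AKAP12, a scaffold for protein kinases, had 16354 and 16930 normalized counts in SB, 46287 and 41263 at 3 days and 29147 and 26601 at 7 days. PTPN22, a tyrosine phosphatase best known from lymphocytes, had 1000 and 673, 4168 and 4137, and 2801 and 2846. The groups of both genes were separate, with net differences of 0.74 (SE 0.09, limma adjusted p = 2.22e-05) and 1.78 (SE 0.15, limma adjusted p = 1.31e-06). The leukocyte markers stood near 0 in the same libraries, with PTPRC between 0 and 4. PLK2, a polo-like kinase, ended lower than SB, at 890 and 956 against 1511 and 1208 (-0.55, limma adjusted p = 0.00306), after 2272 and 1928 at 3 days. GADD45B, a stress gene and known early TGFβ target, went from 979 and 922 to 1701 and 1853 and back to 963 and 806 (limma adjusted p = 0.443). SGK1, a serum- and glucocorticoid-induced kinase, went from 2722 and 2206 to 4864 and 4618 and then to 2101 and 2048 (limma adjusted p = 0.0728). RGS4, RGS10 and RGS20, which shorten G protein signals, rose by 1.78, 0.70 and 0.60, and RGS4 alone of these was higher than SB at 7 days (limma adjusted p = 0.00142). GRB14, RUSC2 and TBC1D2 were the other higher ones. RASGEF1B was the other lower one, a call lost without SB replicate 1 or the first 7-day library. PLCB2 and PLCXD2 did not pass the test.

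Metabolic enzymes and transporters gave 13 members, of which 4 were higher at 7 days, 1 was lower and 8 did not pass the test. BPGM, which makes the bisphosphoglycerate that lowers the oxygen affinity of hemoglobin, had the largest rise of all members. It stood at 771 and 565 in SB, 4804 and 4365 at 3 days and 2990 and 2972 at 7 days. The 7-day libraries stayed well above SB (net difference 2.17, SE 0.13, limma adjusted p = 8.47e-08), and 22.2% of the rise was lost. HMOX1, heme oxygenase, had 737 and 520, 1961 and 2243, and 1450 and 1254 (net difference 1.12, limma adjusted p = 7.80e-05). G0S2, an inhibitor of triglyceride lipase, and SLC19A2, a thiamine transporter, were also higher, with the call of G0S2 lost without SB replicate 2 or the first 7-day library and that of SLC19A2 lost without SB replicate 1 or either 7-day library. GNPNAT1, an enzyme of the hexosamine pathway, went from 7022 and 5859 to 14269 and 13298 and back to 7069 and 7469, which lay above the higher SB library (net difference 0.18, limma adjusted p = 0.135), and without SB replicate 1 the gene was higher than SB (0.31, limma adjusted p = 0.0164). AOX1, aldehyde oxidase, was the lower one (-0.66, limma adjusted p = 0.0115), a call lost without the second 7-day library. AGMAT, ASAH2B, GLDC, MT1L, NAGS, NCEH1 and SLC7A8 did not pass the test, and ASAH2B and MT1L have close paralogs whose reads may be shared.

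The other 10 members were 5 non-coding RNAs and 5 genes of other or unknown roles. LINC00152 and MIR4435-1HG are near-identical copies on chromosome 2, so their reads are uncertain, and FRMD6-AS1 lies antisense to FRMD6. SNORD45A, a small nucleolar RNA inside a host gene, was lower at 7 days (-0.83, limma adjusted p = 0.0258), a call lost without SB replicate 1 or the first 7-day library, and LOC100506178 was higher (1.08, limma adjusted p = 3.13e-05). IFI44, an interferon-stimulated gene, had 2178 and 2270, 5080 and 4743, and 3286 and 3560, with a net difference of 0.62 (limma adjusted p = 0.000106). Of the 29 interferon-stimulated genes tested, 1 was higher and 15 were lower at 3 days than in SB. The shares over all genes tested were 14.9% higher and 14.0% lower. C9orf43 was lower at 7 days, with a call lost in 5 of 6 fits with a library left out, and LETM2 and NRIP3 did not pass the test. The last member had its symbol turned into a date number in the table, and its gene is not named here. It had 226 and 126, 854 and 971, and 494 and 424 normalized counts.

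Pathway lists placed the members among their relatives. The members included 3 of the 22 listed YAP and TAZ targets, CTGF, CYR61 and F3. Of the 7 YAP and TAZ targets that rose by more than 0.5 at 3 days, the other 4 (ARHGEF17, CCDC80, NT5E and PTPN14) were higher at 7 days than in SB. Over the 22 genes, 8 were higher and 5 were lower at 3 days than in SB, with a median of 0.18 on the log2 scale. The shares over all genes tested were 14.9% higher and 14.0% lower. Between 3 and 7 days, 3 of the 22 were higher and 15 were lower at 7 days, with a median of -0.59. This stood against 17.0% higher and 16.2% lower over all genes tested, whose median was 0.02. CTGF, CYR61 and F3 are among the 8 genes higher at 3 days and the 15 lower at 7 days, since the rule chose them by these steps. Several other listed genes fell without a rise that passed the test. ANKRD1, a nuclear ankyrin repeat protein, had 258 and 108 in SB, 173 and 138 at 3 days and 3 and 6 at 7 days. AXL, a receptor tyrosine kinase, had 4395 and 3179, 4161 and 4344, and 1080 and 961. CTGF, CYR61 and F3 shared a low 7-day level with listed genes that lacked the rise.

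**Figure D4:**
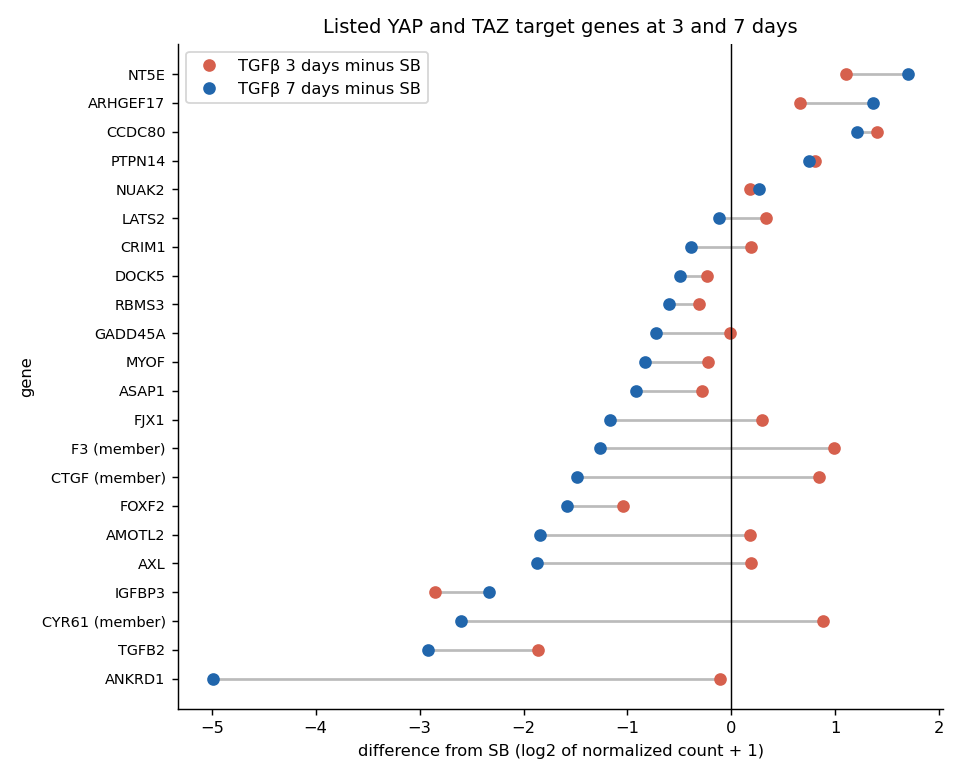
Differences from SB in log2(normalized count + 1) for the 22 listed YAP and TAZ target genes, at 3 days (red) and 7 days (blue) of TGFβ, sorted by the 7-day value. CTGF, CYR61 and F3 cross from above 0 to below 0, and ANKRD1 is lowest at 7 days.

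Other lists held between 0 and 4 members. Against 0.707% of all genes averaging at least 50, there were 4 members (18.2%) among the 22 immediate early and AP-1 genes averaging at least 50. Of the 24 tested genes of this list, 8 were lower and 4 higher at 7 days than at 3 days. The shares over all genes tested were 16.2% lower and 17.0% higher. EGR1 and KLF6 are among the 8, and the rule chose them by this fall. At the same minimum, the members were 2 of 9 matricellular genes (22.2%, CTGF and CYR61) and 2 of 13 metalloproteinases and inhibitors (15.4%). The 21 tested TGFβ feedback and direct targets held only CTGF. Of the 21, 12 were higher at 7 days than at 3 days and 2 were lower, CTGF among these. The shares over all genes tested were again 17.0% and 16.2%. The study's EMT signature of 45 genes held 2 members (4.44%), FERMT2 among them. Of these 45 genes, 38 had the rise, and 6.7% of all genes with the rise were members. None of the tested MRTF and SRF targets, MAPK feedback genes, EMT transcription factors, keratins or integrins was a member, nor any gene of the S phase and G2/M phase signatures. These lists held 6 to 54 genes averaging at least 50, so at a share of 0.707% a count of 0 says little about them.

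Positions along the genome were also shared by some members. In GRCh37, 12 of the 84 members matched in GENCODE (14.3%) had another member within 200 kb, against 3.87% of the genes with the rise and 2.51% of the genes averaging at least 50. The pairs were DKK3 and MICAL2 (84.2 kb apart), FERMT2 and GNPNAT1 (65.6 kb), G0S2 and LAMB3 (23.0 kb), MMP1 and MMP13 (144.8 kb), PLCXD2 and TAGLN3 (152.3 kb), and the overlapping IL6 and STEAP1B.

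The SB libraries differed for the members more than for other genes. SB replicate 1 was higher than SB replicate 2 for 71 of the 87 members (81.6%), against 52.7% of the genes averaging at least 50 and 52.5% of the genes with the rise. The median of the signed difference, replicate 1 minus replicate 2, was 0.31 on the log2 scale for the members and 0.02 for the genes averaging at least 50. Without the sign, the median gap was 0.32 for the members and 0.14 for the genes averaging at least 50. It was 0.21 for the genes with the rise. In the TGFβ groups, replicate 1 was also the higher one for 66.7% of the members at 3 days and 62.1% at 7 days. The shares of the genes averaging at least 50 were 53.6% and 45.8%. The rise held above 0.5 for 65 members against SB replicate 1 alone and for 85 against SB replicate 2 alone, and it was above 0 for 87 against either. The part of these differences between replicates in the results was not tested, and the rule used these libraries.

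**Figure D5:**
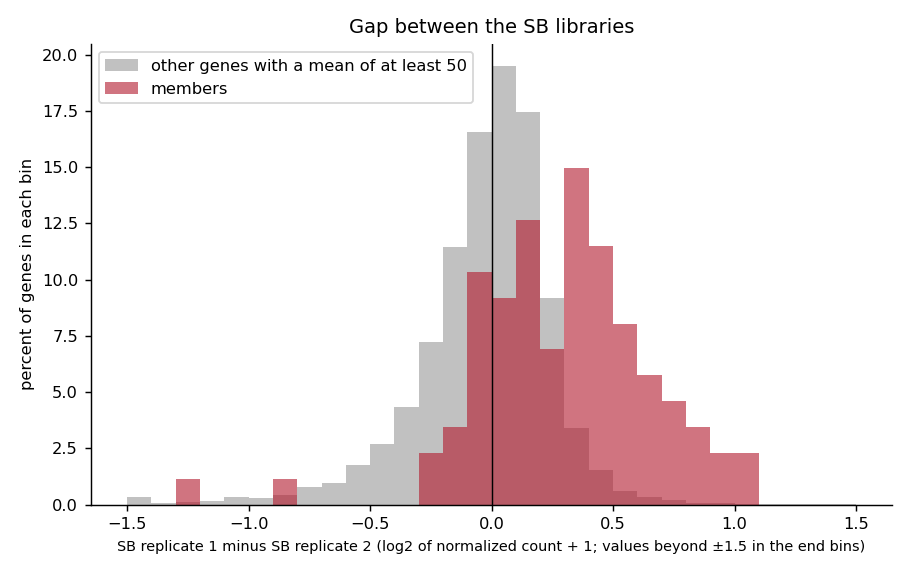
Difference between the SB libraries (replicate 1 minus replicate 2, log2 of normalized count + 1, values beyond 1.5 in the end bins) as percent of genes per bin, for the 87 members (red) and the other genes averaging at least 50 (gray). The members are shifted to the right, with a median of 0.31.

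The limits of the rule were sharp relative to the values. Rises just inside were those of RASGEF1B (0.50) and EPB41L4A (0.52), and the nearest genes outside were FLNC, BEST3 and SNORA67, at 0.498, 0.497 and 0.490. The smallest falls inside were those of LAMB3, IFI44 and SHANK1 (-0.52 each), and SEMA3C (-0.50), SRRD and ADARB1 (-0.48 each) lay just outside. The lowest means inside were those of SP140 (50.2), PLCXD2 (50.5) and MYO16 (53.5), and the nearest outside were FAM46B (49.5), SLC7A2 (49.3) and SNORD10 (46.3). With each library left out in turn, 46 members met the rule in all 6 cases.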

How the data were processed

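The authors aligned read pairs to hg19 (STAR), counted unique alignments per gene (HTSeq 0.6.1p1) and normalized the counts by library size with DESeq2. The deposited table holds these normalized counts, rounded to whole numbers and recorded here as a score, so count models were not used. Values were taken as log2(normalized count + 1). Genes averaging at least 10 (14395) entered a limma 3.58.1 fit (R 4.3.3, group as the only term, empirical Bayes with a trend, 3 residual degrees of freedom) and adjusted by the Benjamini-Hochberg method at 0.05. With 2 libraries against 2, an exact permutation test cannot give a p below 0.333. The fit was tested on simulated data first.

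The members, gene lists and tests were chosen with earlier results of these data known. Named members were the 8 with the largest rise and the 8 with the largest fall, the 5 highest and 5 lowest at 7 days against SB, the 5 with the highest mean, members of the lists, and the 3 nearest each limit. Other members, and role groups, were named after their values were seen. Values of 3 members are not reported here by name. Gene positions come from GENCODE for GRCh37, promoters from RefSeq. Deviations of same-numbered libraries within their groups correlated at 0.14 (SB and 3 days), -0.10 (SB and 7 days) and -0.29 (3 and 7 days). By these correlations the numbers did not pair the libraries, although replicate 1 was the higher one for most members in each group. Alternatives were other pseudocounts, filters, scalings and fits, and each library left out.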

Additional observations from a re-analysis of the deposited data

How the results depend on the processing

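The rule gave 87 members, 148 with a mean of at least 10, 9 with steps of at least 1, 346 with steps of at least 0.25, and 77 to 90 under 3 other scalings. With a library left out it gave 70 to 114. Higher calls at 7 days ranged from 25 to 32 with all libraries and from 23 to 39 with 1 left out, and lower calls from 9 to 17 and from 7 to 20. With the replicate number as a block, 28 members were higher and 13 were lower (27 and 11 shared). In this fit SHANK1 lost its call while AMIGO2 gained one, although the correlations above did not pair the libraries. For the 39 named genes, 380 of 390 values from the fits with no single library left out kept direction and call, and 0 turned direction. With 1 library left out, 14 of 234 turned direction. The net difference then ranged from -0.0703 to 0.96 for AMIGO2, from -0.87 to 0.23 for EGR1, from -0.38 to 0.98 for FOSB, from -0.24 to 0.0195 for GADD45B, from -0.0347 to 0.29 for IL6, from -0.13 to 0.83 for KLF2, from -0.0671 to 0.17 for KLF6, from -0.56 to 0.18 for MMP1, from -0.26 to 0.0669 for MMP13, from -0.38 to 0.27 for PLCXD2 and from -0.16 to 0.0946 for RND3. The cause was not tested. Genes near the limits and low genes such as MYO16 are limited by 2 libraries a group.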
